A study of Drosophila melanogaster with 16 samples.

Results

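The genes described here encode the nuclear pore and the soluble factors that carry cargo through it. They were taken by symbol, as every gene whose symbol in the deposited tables begins with Nup and a digit, together with a short list of exact symbols. The rule reads no measured value, but the group itself was picked with earlier results of these data known. The rule found 26 of the 9977 genes in the count table: 15 by the Nup pattern and 11 by exact symbol, out of 12 symbols listed. The 1 symbol without a row was Ran, which the table spells ran. ran is therefore not among the 26, and its values are given beside theirs.

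The libraries came from Schneider 2 (S2) cells, a Drosophila melanogaster line of embryonic origin with features of blood cells. Cells received 40 µg/ml of dsRNA matching the imp gene, or the same dose matching luciferase, a gene that flies lack, with a further dose each day, and RNA was taken on day 3. Poly(A) RNA was sequenced from 3 libraries of each treatment, made on different days, and an imp library and a luciferase library with the same replicate number were treated as a pair. Imp is a cytoplasmic RNA-binding protein, and the comparison asks whether transcripts of these cells change in level when it is depleted. Both treatments used the same line, and no untreated cells are among these 6 libraries. The study's supplement names alternative imp dsRNA fragments for these libraries, and which of them each replicate received is not stated.

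The nuclear pore complex is a large ring-shaped channel through the nuclear envelope, built from many copies of proteins called nucleoporins. A scaffold of Y-shaped subcomplexes and an inner ring holds the channel open, nucleoporins rich in phenylalanine and glycine repeats fill it, and filaments and a basket project from the cytoplasmic and the nuclear face. Importins and exportins recognise signals on cargo proteins and cross the pore with them, the small GTPase Ran sets the direction by being bound to GTP in the nucleus and to GDP in the cytoplasm, and mRNA leaves through a separate export receptor.

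Library totals ran from 1081882 to 5463535 counts, and the 26 genes together took 0.453% to 0.502% of them. The targeted gene, Imp, had 232, 323 and 454 CPM (counts scaled to the size of each library) after imp dsRNA and 658, 736 and 813 CPM after luciferase dsRNA in pairs 1, 2 and 3. All imp dsRNA libraries lay below all luciferase dsRNA libraries, with a log2 fold change of -1.18 ± 0.18 (SE), although the adjusted p of 0.113 in edgeR's quasi-likelihood test did not pass 0.05. Imp did pass by DESeq2, with an adjusted p of 0.000184, and in edgeR with no filter on low counts, at 2.98e-06, and without pair 3, at 1.61e-12. It did not pass by limma-voom, with an adjusted p of 0.127. In edgeR it also did not pass with no replicate block, at 0.9997, with at least 10 counts in every library, at 0.147, or with DESeq2 size factors, at 0.148. The study reports from western blots that Imp protein was strongly reduced by this treatment, which RNA libraries do not measure. Of 10 hemocyte markers, 8 were in the table, with summed levels of 2621 to 3685 CPM after imp dsRNA and 2237 to 2340 CPM after luciferase dsRNA, and the ranges did not overlap. That separation came from vkg, a type IV collagen gene that made up the largest part of the sum. Without vkg, left out after its values were seen, the other 7 summed to 1041 to 1280 CPM after imp dsRNA and 876 to 1188 CPM after luciferase dsRNA, which overlapped. Hml was low, at 2.91 to 9.01 CPM. NimC1 and Col4a1 matched no row by symbol. Summed fat body markers lay at or below 1.46 CPM and muscle markers at or below 19.6 CPM in every library, while neuron markers reached 131 CPM, with ranges that overlapped between treatments. The part of vkg in the results below was not tested.

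In control cells the soluble factors were, as a group, at higher levels than the pore proteins. Levels were compared between genes as CPM per kb of annotated exon in the 3 luciferase dsRNA libraries. The 9 soluble factors had a median of 96.1 CPM per kb with a range of 21.4 to 252, and the 17 nucleoporins had a median of 21.8 CPM per kb with a range of 12.7 to 50.3. The median over the 6223 genes with a length was 20.5 CPM per kb, so the typical nucleoporin lay near the middle of all genes tested. Outside the rule, 11 other importins and exportins with a length had a median of 15.8 CPM per kb, below that of the 17 nucleoporins. Other Ran cycle genes (6) had a median of 67.1 CPM per kb and other mRNA export genes (14) 45.3. Other pore genes (10) had a median of 13.7 CPM per kb with a range of 4.89 to 82.1. The contrast is therefore given for the members only. No test was made between genes.

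**Figure D1:**
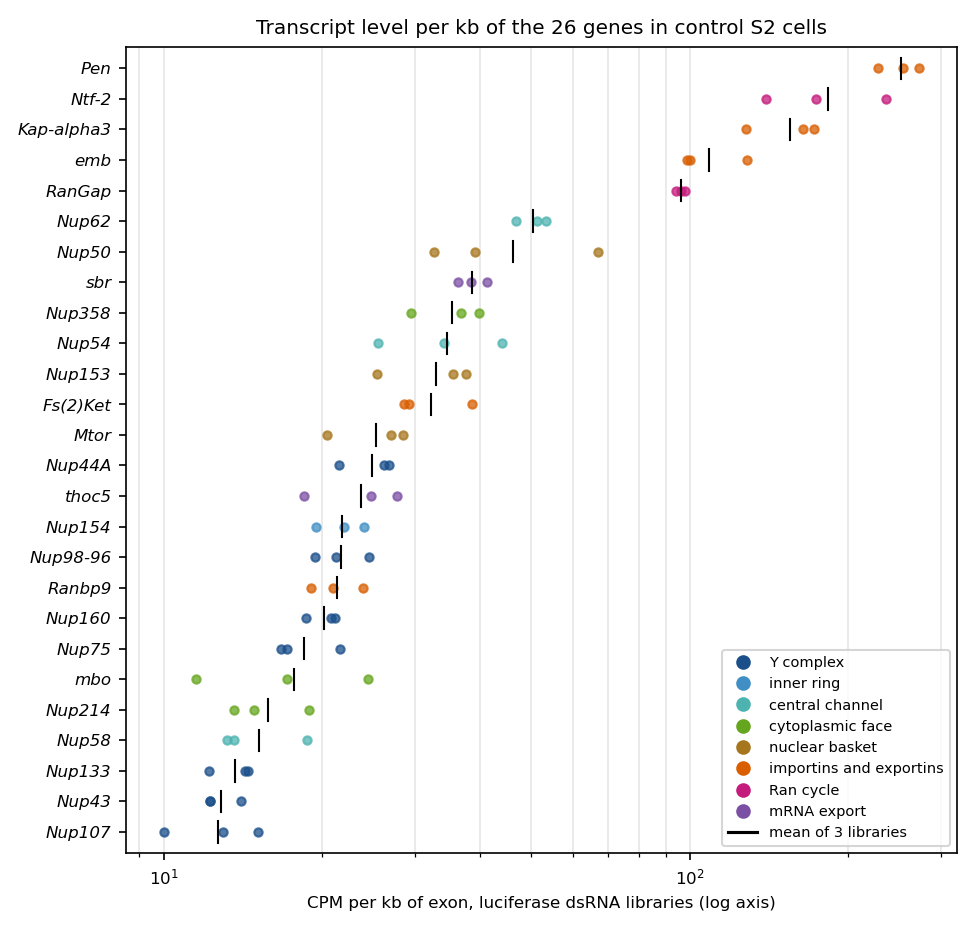
Level of each of the 26 genes in the 3 luciferase dsRNA libraries, as CPM per kb of exon on a log axis, with 1 point per library, the mean as a black bar and the colour giving the gene's place in the pore or transport pathway. Pen is at the top with a mean of 252 CPM per kb and Nup107 at the bottom with 12.7, and the 5 highest means all belong to soluble factors.

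Pen, an importin alpha that links cargo to importin beta, had the highest level per kb, with 273, 255 and 227 CPM per kb in luciferase libraries 1, 2 and 3. Ntf-2, which returns Ran to the nucleus, followed with 236, 174 and 139 CPM per kb. Kap-alpha3, another importin alpha, had 128, 172 and 164 CPM per kb. Neighbours in this order overlapped: the highest library of Ntf-2 lay above the lowest of Pen, and the highest of Kap-alpha3 above the lowest of Ntf-2. emb, the exportin that carries proteins with nuclear export signals, had 99.9, 98.6 and 128 CPM per kb and just reached the range of Kap-alpha3. RanGap, which activates GTP hydrolysis by Ran on the cytoplasmic side, had 97.8, 96.3 and 94.3 CPM per kb, below every library of emb and above every library of the genes further down the order. ran itself, outside the rule, had a mean of 1062 CPM per kb in the same libraries.

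The 3 lowest means per kb belonged to scaffold genes. Nup107, a subunit of the stem of the Y complex, had 15.1, 13.0 and 10.0 CPM per kb. Nup43, another Y complex subunit, had 12.27, 12.25 and 14.04 CPM per kb. Nup133, which sits at the end of that stem, had 12.2, 14.5 and 14.3 CPM per kb. The 3 genes overlapped in range and could not be ordered. Each also overlapped Nup58 of the central channel, with 18.7, 13.2 and 13.6 CPM per kb. On the cytoplasmic face, Nup214, with 13.6, 18.9 and 14.8 CPM per kb, and mbo, with 24.4, 17.2 and 11.5, overlapped each of them as well. Across the Y complex as a whole, means ran from 12.7 CPM per kb for Nup107 to 24.9 for Nup44A, although its proteins are parts of 1 assembly.

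After imp dsRNA none of the 26 transcripts passed the test. All 26 passed the filter on low counts, and edgeR called 0 of them at an adjusted p under 0.05, where the background was 0 of 6526 genes tested, or 0%. At an unadjusted p under 0.05 the count was again 0 of 26, against 2.87% of all genes tested, of which 1.62% were higher and 1.24% lower after imp dsRNA. limma-voom and DESeq2 also gave 0 members at either threshold. The smallest unadjusted p among the 26 was 0.112, for Ntf-2, and every adjusted p was 0.999. From its own test of these triplicates, the study reports no transcript with a significant change after correction for multiple testing.

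Fitted log2 fold changes of the members ran from -0.30 for Nup43 to 0.33 for Ntf-2, with a median of -0.03, beside -0.01 over all genes tested. Of the 26, 11 lay above 0 and 15 below, where 48.5% and 51.5% of all genes tested did. Standard errors were 0.15 to 0.27, and the 95% intervals of the members together spanned -0.87 to 0.76 on the log2 scale. A change smaller than these intervals could not be seen with 3 pairs, and what is shown is the absence of a call, not the absence of a change. In bulk RNA, a shift in the mix of cells and a change within each cell cannot be told apart.

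**Figure D2:**
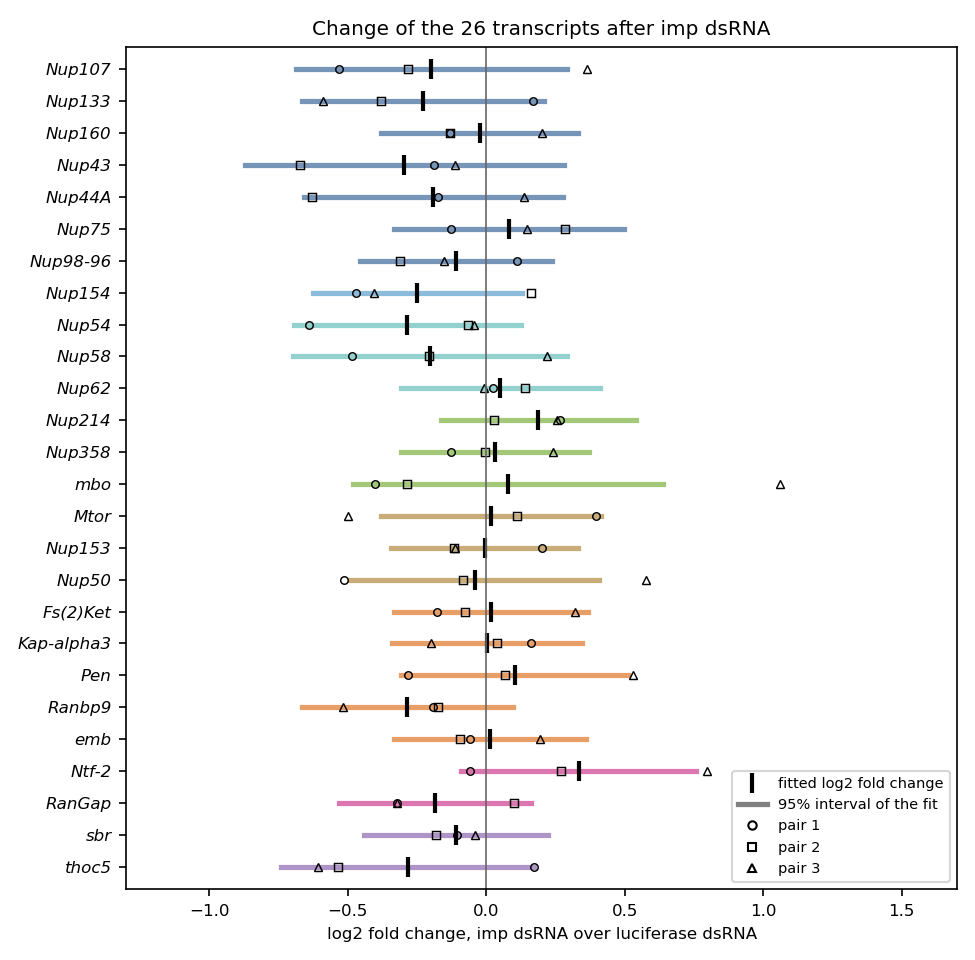
Log2 fold change of imp dsRNA over luciferase dsRNA for each of the 26 genes, with the fitted value as a black tick, its 95% interval as a bar coloured by place in the pathway, and the 3 pairs as open symbols. Every interval crosses 0, and the pairs of most genes lie on both sides of it, with the widest spread for mbo, from -0.40 in pair 1 to 1.06 in pair 3.

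The libraries of the 2 treatments overlapped for every member: 0 of 26 were separated, where 6.19% of all genes tested were, 2.8% above and 3.39% below. The pairs went the same way in 5 of the 26, or 1 higher and 4 lower after imp dsRNA, against 11.3% and 12.2% of all genes tested. Nup214 was the member higher in every pair, and Nup43, Nup54, Ranbp9 and sbr were lower in every pair. The first count is a smaller share than the background and the second a slightly larger one.

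The importins and exportins had the highest summed level of any group here. Of all 26 members, 2 are among the 86 Imp targets that the study lists from its binding assays. They are Pen and emb, both of this group of 5. The study ranked only transcripts expressed above the average of a dataset, so members at low levels may not have been ranked. Whether this group holds more targets than its share was not tested. Pen lies on chromosome 2L from 10056900 to 10060095 in the BDGP6 annotation, with 5 exons and 2577 bases of exon. It had 578, 688 and 846 CPM after imp dsRNA and 703, 656 and 586 CPM after luciferase dsRNA. Pen was thus lower with imp dsRNA in pair 1, little different in pair 2 and higher in pair 3, and the treatments overlapped. Its log2 fold change was 0.10 ± 0.19 (SE), with a 95% interval from -0.31 to 0.51 and an unadjusted p of 0.594 in edgeR.

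emb, also called exportin 1, lies on chromosome 2L from 8403573 to 8408853 in BDGP6, with 7 exons. It had 431, 414 and 659 CPM after imp dsRNA and 449, 443 and 576 CPM after luciferase dsRNA. In both treatments the third library was the high one, and the treatments overlapped. Its log2 fold change was 0.01 ± 0.16 (SE), with a 95% interval from -0.33 to 0.36. A log2 change of emb as large as the -1.18 of Imp lies outside that interval.

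Kap-alpha3 had 411, 507 and 410 CPM after imp dsRNA and 366, 494 and 471 CPM after luciferase dsRNA. Its second library was the highest in each treatment, and the treatments overlapped. The fitted log2 fold change was 0.00 ± 0.16 (SE). Fs(2)Ket, the importin beta that partners importin alpha, had 244, 195 and 262 CPM after imp dsRNA and 276, 205 and 210 CPM after luciferase dsRNA. It overlapped between treatments as well, with the lowest value of each treatment in pair 2 and a log2 fold change of 0.02 ± 0.16 (SE).

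Ranbp9, an importin known in the later annotation as Ipo9, had one of the smallest unadjusted p values among the members below 0. Its levels were 60.8, 70.3 and 43.8 CPM after imp dsRNA and 69.6, 79.4 and 63.1 CPM after luciferase dsRNA. Every pair was lower after imp dsRNA, yet the ranges overlapped because the second imp dsRNA library lay above the first luciferase dsRNA library. The log2 fold change was -0.29 ± 0.18 (SE) with an unadjusted p of 0.130 in edgeR.

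**Figure D3:**
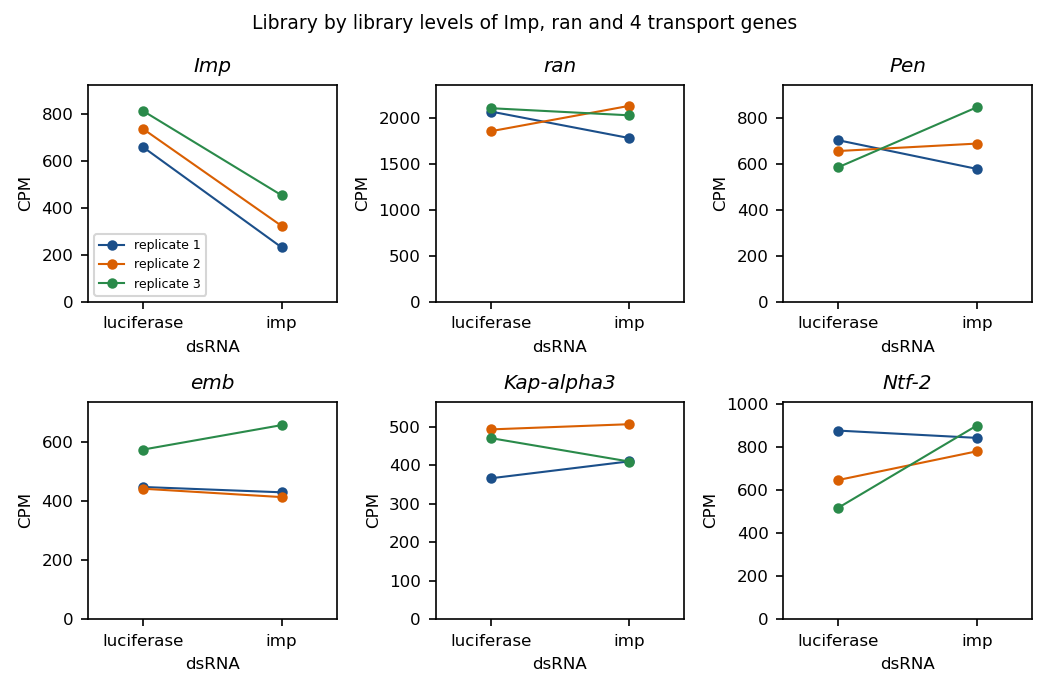
CPM of Imp, ran and 4 transport genes in each library, with luciferase dsRNA on the left of each panel, imp dsRNA on the right and a line joining each pair, on axes that start at 0. The 3 lines of Imp all fall, from 658 to 813 CPM down to 232 to 454, whereas the lines of ran, Pen, emb, Kap-alpha3 and Ntf-2 cross or run in both directions.

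Among the genes of the Ran cycle, Ntf-2 had the highest fitted log2 fold change of all 26. It lies on chromosome X from 21035469 to 21041467 in BDGP6. Its levels were 844, 781 and 901 CPM after imp dsRNA and 878, 648 and 519 CPM after luciferase dsRNA. The imp dsRNA libraries were close to each other, and the luciferase dsRNA libraries were spread, with the first of them above 2 of the 3 imp dsRNA libraries. The log2 fold change was 0.33 ± 0.20 (SE), with a 95% interval from -0.09 to 0.76 and an unadjusted p of 0.112 in edgeR. Without pair 1 it was 0.53 (unadjusted p of 0.0428, adjusted p of 0.987, edgeR).

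Ntf-2r, a retrogene copy of Ntf-2 outside the rule, had 20.3, 23.4 and 18.8 CPM after imp dsRNA and 15.59, 14.03 and 9.23 CPM after luciferase dsRNA. All imp dsRNA libraries were above all luciferase dsRNA libraries, with a log2 fold change of 0.66 ± 0.26 (SE; unadjusted p of 0.0235, adjusted p of 0.999, edgeR). The likeness of the 2 sequences was not measured here, and how the counting divided any shared reads between the genes is not known. The values of each carry that uncertainty.

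RanGap had 188, 248 and 181 CPM after imp dsRNA and 235, 231 and 226 CPM after luciferase dsRNA. Its luciferase dsRNA libraries were the most alike of any member, with a coefficient of variation of 1.87%, and the imp dsRNA libraries lay on both sides of them. The log2 fold change was -0.18 ± 0.16 (SE). ran, which is among the 86 Imp targets and lies on chromosome X from 11144852 to 11148716 in BDGP6, had 1786, 2137 and 2034 CPM after imp dsRNA and 2075, 1860 and 2112 CPM after luciferase dsRNA. The treatments overlapped, and the log2 fold change of ran was -0.02 ± 0.20 (SE).

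The 2 mRNA export members both had fitted values below 0, and neither passed the test. sbr, the fly NXF1 receptor that carries mRNA through the pore, had 136, 120 and 125 CPM after imp dsRNA and 146, 136 and 129 CPM after luciferase dsRNA. Every pair was lower, by small amounts, and the ranges overlapped. The log2 fold change of sbr was -0.11 ± 0.15 (SE), the smallest standard error among the 26. thoc5, a subunit of the THO complex that couples transcription to export, had 42.6, 38.7 and 32.9 CPM after imp dsRNA and 37.7, 56.5 and 50.5 CPM after luciferase dsRNA. Pair 1 went up and the other pairs went down for thoc5, with a log2 fold change of -0.28 ± 0.21 (SE). Without pair 1 it was -0.59 (unadjusted p of 0.0261, adjusted p of 0.987, edgeR).

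Of the 7 Y complex members, Nup107, Nup133, Nup160, Nup43, Nup44A, Nup75 and Nup98-96, 6 had fitted log2 fold changes below 0 and none passed the test. The group's median was -0.19. Without pair 1, 4 of the 7 lay below 0, with Nup107 at 0.0358 and Nup160 at 0.0303. Nup75, the fly Nup85, was the exception, at 0.08 ± 0.19 (SE). Nup107 and Nup133, which join end to end in the stem, were at -0.20 ± 0.23 and -0.23 ± 0.20 (SE), and Nup44A was at -0.19 ± 0.22 (SE). Nup160, of the Y's long arm, was at -0.02 ± 0.16 (SE), and Nup98-96, a single gene whose product is cut into Nup98 and the scaffold protein Nup96, at -0.11 ± 0.16 (SE). Nup43 was the least covered member, with 10 counts in its shallowest library and 13.0, 9.01 and 15.6 CPM after imp dsRNA against 14.9, 14.8 and 17.0 CPM after luciferase dsRNA. Nup43 was lower in every pair with overlapping ranges, and its log2 fold change was -0.30 ± 0.27 (SE). Summed over the Y complex, the level was 391 ± 23.9 CPM after imp dsRNA and 420 ± 24.4 CPM after luciferase dsRNA (mean ± SD, n = 3). The Y complex sum was lower in every pair, by 0.05, 0.25 and 0.01 on the log2 scale in pairs 1, 2 and 3, the first and last of which are close to 0.

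The inner ring was represented by Nup154 alone, which had 94.1, 118 and 90.0 CPM after imp dsRNA and 131, 105 and 119 CPM after luciferase dsRNA. Pair 2 was higher and the others lower, and the log2 fold change was -0.25 ± 0.18 (SE) with an unadjusted p of 0.179 in edgeR. Nup54, Nup58 and Nup62 form the central channel. Nup54 had 57.4, 66.7 and 50.9 CPM after imp dsRNA and 89.9, 69.7 and 52.5 CPM after luciferase dsRNA. The high value of Nup54 was the first luciferase dsRNA library, and pairs 2 and 3 differed little. Its log2 fold change was -0.28 ± 0.19 (SE) with an unadjusted p of 0.157 in edgeR. Nup62, by contrast, varied little in any library, between 67.7 and 77.2 CPM, with a log2 fold change of 0.05 ± 0.17 (SE). Nup58 lay between 20.7 and 34.1 CPM, highest in the first luciferase dsRNA library like Nup54, with a log2 fold change of -0.20 ± 0.23 (SE).

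On the cytoplasmic face, Nup214, mbo and Nup358 all had fitted values above 0, and none passed the test. Without pair 3, only Nup214 stayed above 0, while mbo was at -0.36 and Nup358 at -0.0671. Nup214, which binds export receptors together with mbo, had 87.4, 103 and 94.7 CPM after imp dsRNA and 72.5, 101 and 79.2 CPM after luciferase dsRNA. Every pair was higher for Nup214, by the least in pair 2, and the ranges overlapped. Its log2 fold change was 0.19 ± 0.16 (SE) with an unadjusted p of 0.268 in edgeR. mbo, the fly Nup88, had 47.3, 36.0 and 62.6 CPM after imp dsRNA and 62.7, 44.1 and 29.6 CPM after luciferase dsRNA. For mbo the highest values of the 2 treatments were alike and came from different pairs, and the log2 fold change was 0.08 ± 0.26 (SE). Nup358, the RanBP2 homolog of the cytoplasmic filaments, lay between 253 and 340 CPM in all 6 libraries, with a log2 fold change of 0.03 ± 0.16 (SE).

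The nuclear basket members Mtor, Nup153 and Nup50 had fitted log2 fold changes of 0.02, -0.01 and -0.04. Nup50, a basket protein that helps importin alpha release its cargo, had 89.1, 70.3 and 93.1 CPM after imp dsRNA and 128, 74.5 and 62.2 CPM after luciferase dsRNA. The first luciferase dsRNA library of Nup50 was far above the other luciferase dsRNA libraries, a coefficient of variation of 39.5% that is the largest among the 26. Without pair 3 the log2 fold change of Nup50 was -0.35 (unadjusted p of 0.0454, adjusted p of 0.377, edgeR). That of Nup54 was then -0.41 (unadjusted p of 0.0280, adjusted p of 0.315, edgeR). Mtor, the fly Tpr that forms the core of the basket, had 210, 240 and 149 CPM after imp dsRNA and 159, 222 and 210 CPM after luciferase dsRNA. Pair 1 of Mtor was higher and pair 3 lower, the reverse of Nup50. Nup153, which anchors the basket to the pore, lay between 206 and 304 CPM, with its lowest and highest values both among the luciferase dsRNA libraries.

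Summed over the 26 genes, the level was 4799 ± 251 CPM after imp dsRNA and 4672 ± 228 CPM after luciferase dsRNA (mean ± SD, n = 3). The paired log2 ratios of this sum were -0.09, 0.01 and 0.19 in pairs 1, 2 and 3, so the pairs disagreed in direction. The mean of these ratios was 0.0385, and it fell below 0 without Ntf-2, at -0.0135, with library totals in place of TMM scaling, at -0.00968, and without pair 3, at -0.0397. The summed importins and exportins varied little after luciferase dsRNA, with 1864, 1877 and 1906 CPM, and more after imp dsRNA, with 1724, 1875 and 2221 CPM. The high value was the third imp dsRNA library, where Pen and emb were both at their highest.

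The members' differences between treatments varied from pair to pair. The median difference between treatments over the 26 genes was -0.13 in pair 1, -0.09 in pair 2 and 0.06 in pair 3. The medians over all genes tested, which the scaling brings close to 0, were -0.0045, 0.00028 and -0.015. Over 52 genes of the same pathway outside the rule they were -0.14, 0.0038 and 0.036. Of the 26, 12 were lower after imp dsRNA in pair 1 and higher in pair 3, where 29.8% of all genes tested were. The opposite way went 7, where 30.7% of all genes tested did. Of the 52 genes outside the rule, 23 went the first way and 14 the opposite way, so the pattern is not particular to the members. The replicates were made on different days. Which imp dsRNA fragment each replicate received, and what else differed between those days, is not given in the sources used here.

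**Figure D4:**
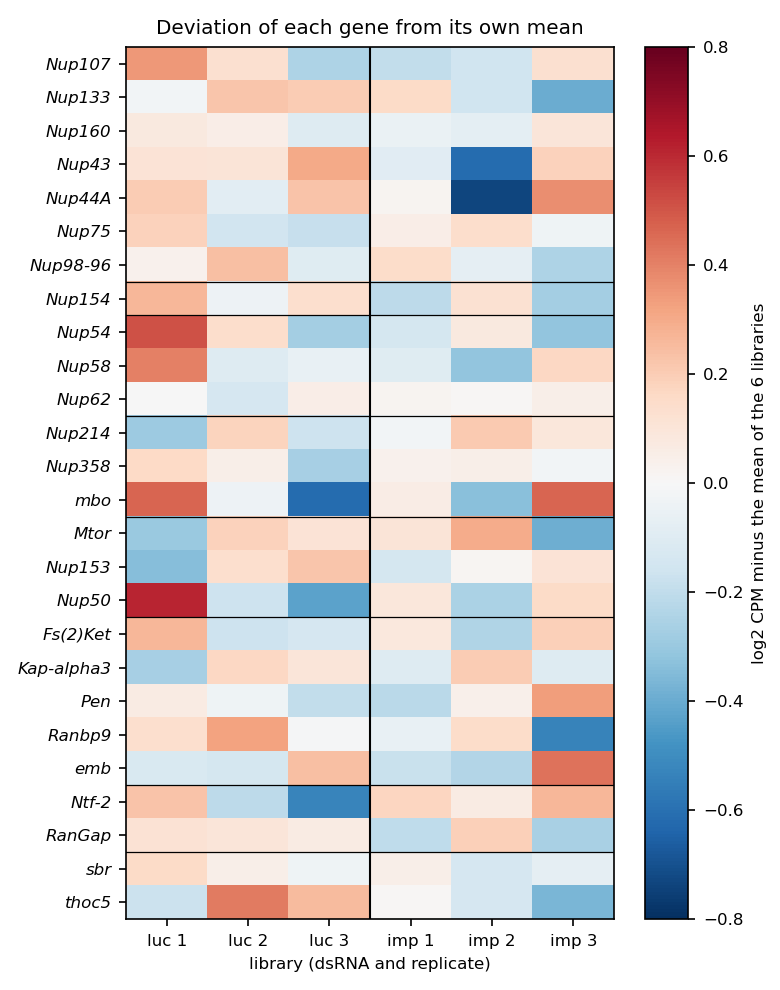
Deviation of each of the 26 genes from its own mean over the 6 libraries, in log2 CPM, with luciferase dsRNA libraries on the left, imp dsRNA libraries on the right and lines between the places in the pore and pathway. No column is of 1 colour throughout, while rows hold both colours because each gene is centred on its own mean. Nup50, Nup54 and mbo are high in luciferase library 1, Nup43 and Nup44A low in imp library 2, and Pen and emb high in imp library 3.

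The test of the replicate number, which asks whether levels differed between the 3 pairs whatever the treatment, called 0 of 26 members at an adjusted p under 0.05, where 3.17% of all genes tested were called by edgeR. At an unadjusted p under 0.05 it was 1 of 26, against 14.6% of all genes tested. That member was emb (unadjusted p of 0.0313, adjusted p of 0.289, edgeR), which was higher in the libraries numbered 3 than in those numbered 1 by 0.49 on the log2 scale. Nup50 and Nup44A followed, with unadjusted p of 0.0739 and 0.107 in the same edgeR test. Nup44A, the fly Seh1, had 32.0, 18.9 and 40.7 CPM after imp dsRNA and 36.3, 29.7 and 36.9 CPM after luciferase dsRNA, lowest in pair 2 in both treatments. Without pair 3, Nup50 passed this test with an adjusted p of 0.0133 in edgeR, and it was then the only member that did. In that fit 862 of all genes tested passed, so the call of Nup50 is not read as a result about the members.

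The members did not share 1 profile over the 6 libraries. Pearson's r between centred log2 CPM values had a median of 0.03 over the 325 pairs of members, with a range of -0.98 to 0.93, and all these values come from the same 6 libraries and share their depth and scaling. The highest r, 0.93, was that of Nup43 and Nup44A, both of the Y complex, and Nup107 with Nup160 had 0.92. Nup43 and Nup44A were both at their lowest in imp library 2, where they had 10 and 21 counts. Over all 21 pairs within that complex the median was 0.08, and the lowest was -0.61, for Nup43 with Nup75. Nup107 was the member closest to the median of the others, with r of 0.96, and Mtor and Kap-alpha3 were the most opposed, with -0.83 and -0.77. Among 3117 other genes with a mean of at least 50 CPM, the profiles most like the members' median were those of Ssb-c31a, eIF4AIII and Rpt1, with r of 0.98, 0.98 and 0.97. Each r rests on 6 values and these are the largest of 3117, so they are not read as a link between the genes.

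Genes of the same pathway outside the rule gave no call either at an adjusted p under 0.05. Of 52 such genes that passed the filter, 0 had an adjusted p under 0.05 and 1 had an unadjusted p under 0.05 in edgeR, which was Ntf-2r, where 0% and 2.87% of all genes tested did. Their median log2 fold change was -0.04. The 11 other pore genes among them, most of them listed under CG numbers and so missed by the symbol rule, had 3 fitted values above 0 and 8 below, where 48.5% and 51.5% of all genes tested lay above and below. Of the 12 other importins and exportins, 6 lay above 0 and 6 below. Of 8 genes of the lamina and nuclear envelope, Lam and Msp-300 are among the 86 Imp targets. Lam, the B-type lamin, had a log2 fold change of 0.31 ± 0.19 (SE) and Msp-300, which links the nuclear envelope to actin, 0.35 ± 0.16 (SE). Both were higher after imp dsRNA in every pair, as were 11.3% of all genes tested. Neither was called, each with an adjusted p of 0.999 in edgeR. Of the same 8 genes, bocksbeutel, which is not among the 86, was also higher in every pair, and koi was lower in every pair.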

How the data were processed

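The authors mapped RNA-seq reads of S2 cells to the dm3 fly genome with a BWA variant, counted, by strand, the reads that fell within a single gene, and deposited the counts per gene without normalization. The authors' own comparison table was used only to pair identifiers with symbols, and its fold changes and p-values were not used. The row that names no gene held 0 counts. The members and lists were chosen with earlier results of these data known.

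The test was the quasi-likelihood test of edgeR 4.0.16 in R 4.3.3 (TMM scaling, low counts removed with filterByExpr, Benjamini-Hochberg adjustment over 6526 genes, threshold 0.05), with the replicate number as a block, leaving 2 residual degrees of freedom. The study's supplement states that replicates were made on different days and that the dispersion method used treats them as paired. Deviations from the group means of same-numbered libraries correlated with r of 0.48, 0.36 and 0.30. Spread between replicates was above counting noise, so each library was counted separately. limma 3.58.1 (voom) and DESeq2 1.42.0, other scalings and filters, no block and leaving out each pair were the alternatives. The edgeR, voom and DESeq2 steps were tested on simulated data. The log2 CPM values of single pairs used a prior count of 2. A single read was worth 0.18 to 0.90 CPM, depending on the library.

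Exon lengths and positions came from the BDGP6 annotation, a later build than dm3, in which 25 of 26 member identifiers were found; Pen was matched by symbol. Named were Imp targets, the members with the smallest p in each direction and for the replicate number, those highest and lowest per kb, and fixed Ran, importin and export genes. Members in no such class are named for their place in the pore and were chosen with their values in view. The binding assays and their control RNA-seq were not analysed here.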

Additional observations from a re-analysis of the deposited data

How the results depend on the processing

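Under 9 alternatives no member was called for the treatment at an adjusted p under 0.05, and the members' median log2 fold change stayed below 0, with a range of -0.12 to -0.01 when a pair was left out. Without the replicate block the median was -0.05 and the block changed no call of a member. Over all genes tested, the count at an unadjusted p under 0.05 was 187, and it was 72 with no replicate block and 65 by DESeq2. The count at an adjusted p under 0.05 was 4 with no filter and 1, Imp, by DESeq2. Genes called for the replicate number were 512 with no filter. When each pair was left out in turn, 0 to 2 members had an unadjusted p under 0.05 in edgeR. They were thoc5 and Ntf-2 without pair 1, and Nup54 and Nup50 without pair 3. These counts were not set against the share of all genes in the same fit, so they are not read as a result about the members. All genes called ranged from 0 to 58, the 58 without pair 3, and those at an unadjusted p under 0.05 from 79 to 853. For the replicate number, 0 to 1 members, the 1 being Nup50 without pair 3, and 73 to 862 genes were called, the 862 without pair 3.

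Signs near 0 turned. Kap-alpha3 was -0.00501 with no replicate block, -0.00620 with at least 10 counts in every library and -0.00775 by limma-voom, and Nup153 was 0.0108 with DESeq2 size factors and 0.0121 by DESeq2. Leaving out a pair turned 13 of 26 members and ran, over ranges of -0.0748 to 0.0678 for emb, -0.13 to 0.12 for Fs(2)Ket, -0.0876 to 0.105 for Kap-alpha3, -0.36 to 0.41 for mbo, -0.19 to 0.26 for Mtor, -0.45 to 0.0358 for Nup107, -0.12 to 0.0530 for Nup153, -0.13 to 0.0303 for Nup160, -0.0671 to 0.11 for Nup358, -0.35 to 0.25 for Nup50, -0.40 to 0.0120 for Nup58, -0.00216 to 0.21 for Nup75, -0.11 to 0.29 for Pen and -0.13 to 0.0655 for ran. The cause was not tested. The other 13 members kept their sign in every alternative. Standard errors and intervals use a variance that edgeR shares in part across all genes tested, so they are not each gene's own spread between the 3 pairs. With 1081882 counts in the shallowest library, a change in a gene as low as Nup43 is limited by counting as well.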
